A study of Mus musculus with 12 samples.

Results

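The transcripts of 10 genes that mark astrocytes and radial glia were followed through 12 RNA-seq libraries of mouse teratomas. The genes were chosen by name (Gfap, Aqp4, Slc1a3, Slc1a2, Aldh1l1, Gja1, S100b, Fabp7, Hopx and Sox9), with earlier results of these data known. All 10 were found among the 38986 genes of the count files, and all 10 were among the 18405 genes that passed the filter on low counts. The teratomas were grown from R1 mouse embryonic stem (ES) cells that carried the lentiviral pEZ-LV235 vector, in which the CAG promoter drives expression in most cell types. The vector was empty in the control group (ET), or carried wild-type Dnmt3L (WT) or one of its acetylation-site mutants, K238R and K412R. Dnmt3L is a catalytically inactive cofactor of the de novo DNA methyltransferases. The lines had been kept in medium with serum and LIF and were injected under the skin of 8-week-old male immunodeficient NOD-PrkdcEM1 mice, and the teratomas were collected at day 21. Each group had 3 libraries. The host is itself a mouse, so RNA of host cells inside a teratoma cannot be told apart from RNA of the graft, and the sources used here do not say whether a line was a single clone or whether the teratomas of a group came from separate mice. The p-values therefore measure the spread between these libraries.

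Radial glia are the neural stem cells of the developing nervous system, which span the neural tube, produce neurons first and later give rise to astrocytes. Astrocytes take up glutamate and potassium, move water, couple to each other through gap junctions and contact blood vessels. In a teratoma, which holds differentiated tissue of all germ layers, such genes are a common sign of neuroectoderm that has progressed to glia. The shift from neuron to astrocyte production is classically tied to loss of DNA methylation at astrocyte genes such as Gfap, which lets the JAK-STAT pathway act on them.

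Library totals lay between 16957677 and 18546100 counts. Dnmt3l itself, which checks the labels, was counted 2941, 3643 and 3581 times in WT and 699, 677 and 463 times in K412R, against 39, 11 and 137 times in ET and only 35, 20 and 10 times in K238R. The transcript goes against the label in the last group, and these 3 are called the K238R-labelled libraries throughout. The lowest count of any of the 10 genes in any library was 103, for S100b in ET replicate 3, so none of them was close to the limit of detection.

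Promoter sequence is shown for 3 members that behaved differently, namely Gfap with the widest spread between libraries, Slc1a3 with the narrowest within groups, and Gja1 with the smallest p-value when the K238R-labelled libraries were set against WT. These are the 250 bases before the annotated start, read 5′ to 3′ on the strand of the gene from RefSeq on build GRCm38.p6, with CpG dinucleotides, the targets of DNA methylation, in capitals. The windows are chr11:102897201-102897450 on the minus strand for Gfap, chr15:8710808-8711057 on the minus strand for Slc1a3 and chr10:56377050-56377299 on the plus strand for Gja1.
Gfap: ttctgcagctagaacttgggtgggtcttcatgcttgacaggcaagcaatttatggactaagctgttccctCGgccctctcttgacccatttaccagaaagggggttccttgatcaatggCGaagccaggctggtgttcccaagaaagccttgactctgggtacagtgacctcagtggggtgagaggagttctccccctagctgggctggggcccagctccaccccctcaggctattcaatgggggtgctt
Slc1a3: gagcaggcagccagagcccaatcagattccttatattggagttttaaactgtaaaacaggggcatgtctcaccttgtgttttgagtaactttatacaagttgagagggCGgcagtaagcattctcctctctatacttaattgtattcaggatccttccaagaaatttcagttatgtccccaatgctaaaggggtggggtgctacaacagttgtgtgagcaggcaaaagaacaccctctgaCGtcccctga
Gja1: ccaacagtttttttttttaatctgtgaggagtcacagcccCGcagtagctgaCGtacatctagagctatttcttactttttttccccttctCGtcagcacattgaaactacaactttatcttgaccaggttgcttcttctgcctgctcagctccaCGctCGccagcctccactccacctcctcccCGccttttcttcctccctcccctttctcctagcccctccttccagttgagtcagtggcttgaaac

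The Gfap and Slc1a3 windows each held 2 CpG and the Gja1 window 6, against a median of 6 over 32851 promoters of the same table, of which 29.0% held 2 or fewer. In all, 8 of the 10 genes had an entry, with 9 starts. CpG numbers were 1 for Slc1a2, 2 for S100b, 4 for Fabp7, 7 for Aldh1l1, and 8 and 18 for the separate starts of Hopx. Both strands were searched for the STAT motif TTCNNNGAA, the nuclear factor I motif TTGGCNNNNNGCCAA and the SOX core ACAANG. The STAT motif was found in the Slc1a3 window alone among the 9, and in 7.02% of all promoters. The search covered these 250 bases only, so a motif farther from the start, in Gfap or another member, would not have been seen. The nuclear factor I motif was in none of the 9 windows and in 0.0365% of all promoters, and the SOX core was in the windows of Slc1a3, S100b, Fabp7 and one Hopx start and in 36.3% of all. DNA methylation was not measured in these libraries, and the windows are given as a description.

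Scaled per kilobase of the longest annotated transcript, Fabp7 was the most abundant member, with a mean level of 441 CPM (counts scaled to the total of the library) per kb over the 12 libraries. It was followed by Gfap (122 CPM per kb), Slc1a3 (90.3), Aqp4 (36.8), Gja1 (34.0), Sox9 (18.1), Hopx (17.1), Aldh1l1 (11.9), Slc1a2 (8.33) and S100b (8.24). The lowest Fabp7 library (342 CPM per kb) lay above the highest Gfap library (271 CPM per kb), so that Fabp7 stood clear of the rest. Slc1a3 lay just above Aqp4 (lowest library 69.2 against highest 68.1 CPM per kb) and Gja1 just above Sox9 (23.9 against 22.9 CPM per kb), and the other neighbours overlapped. Gfap ranged from 35.5 to 271 CPM per kb, a range that took in every Slc1a3 library, and Slc1a2 and S100b were alike in level with 4.71 to 13.1 and 3.86 to 11.5 CPM per kb. These levels depend on which transcript is counted, and the CPM that follow are of the library total unless stated otherwise, without length scaling, for comparison between libraries of 1 gene.

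Gfap, the intermediate filament of astrocytes, was the most variable member. Its level was 267, 460 and 94.0 CPM in ET replicates 1, 2 and 3, 479, 535 and 718 CPM in WT, 202, 337 and 189 CPM in the K238R-labelled libraries and 105, 387 and 109 CPM in K412R. All 3 WT libraries lay above the other 9, while the other 3 groups overlapped throughout, and replicate 2 was the highest library in each of those 3 groups. ET had a mean of 274 ± 183 CPM (SD, n = 3, as for all means here), WT of 577 ± 125 CPM, the K238R-labelled libraries of 243 ± 81.9 CPM and K412R of 200.4 ± 162 CPM.

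Aqp4, the water channel of the astrocyte end-feet, followed the same order. It stood at 167, 242 and 75.9 CPM in ET, 250.05, 325 and 344 CPM in WT, 135, 158 and 142 CPM in the K238R-labelled libraries and 95.9, 187 and 111 CPM in K412R. WT was again above every other library, although WT replicate 1 exceeded ET replicate 2 by only a few CPM. Mean levels were 162 ± 83.2 CPM in ET, 307 ± 49.8 in WT, 145 ± 11.5 in the K238R-labelled libraries and 132 ± 49.0 in K412R, and the last 2 groups overlapped with ET.

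**Figure D1:**
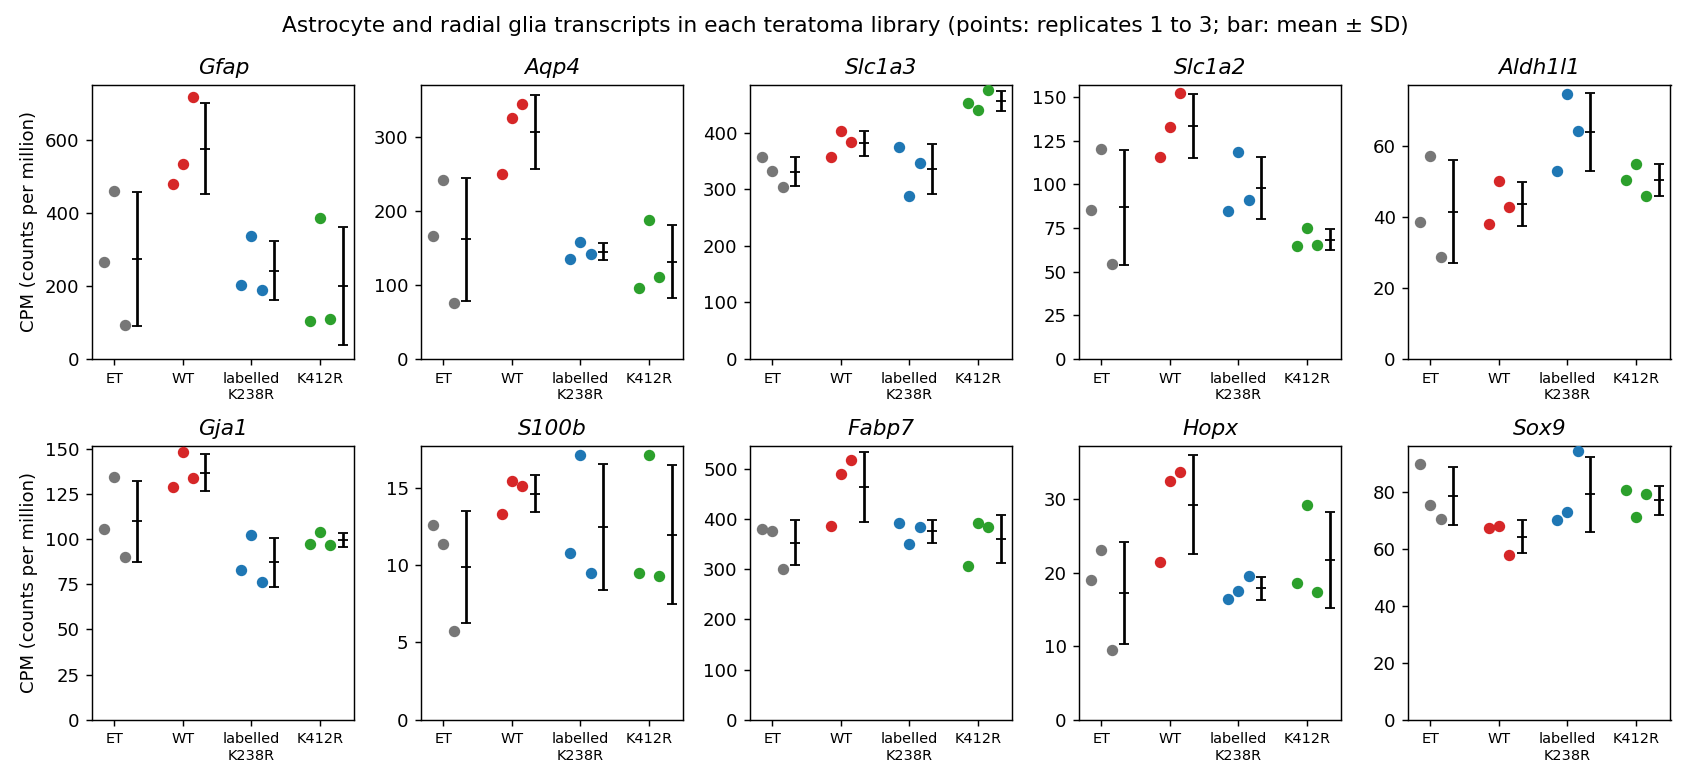
Level of each of the 10 genes in CPM (vertical axes, linear, from 0) in the 12 libraries, with points for replicates 1 to 3 of each group and bars for the mean ± SD. Gfap (479 to 718 CPM) and Aqp4 (250.05 to 344 CPM) in WT lie above all other libraries, Slc1a3 is highest in K412R (439 to 475 CPM), and ET replicate 3 is the lowest of the 12 libraries for 7 of the 10 genes.

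The glutamate transporters Slc1a2 and Slc1a3 clear glutamate from the synaptic cleft, the former mainly in mature astrocytes and the latter already in radial glia. Slc1a2 (GLT-1) was at 85.5, 120.3 and 54.7 CPM in ET, 115, 133 and 152 CPM in WT, 84.5, 118 and 90.9 CPM in the K238R-labelled libraries and 64.5, 75.0 and 65.5 CPM in K412R. The K412R libraries were below all libraries of the other groups except ET replicate 3, whereas WT overlapped with ET and with the K238R-labelled libraries. Its means were 86.8 ± 32.8, 133 ± 18.3, 97.9 ± 17.98 and 68.3 ± 5.81 CPM in ET, WT, the K238R-labelled libraries and K412R.

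Slc1a3 (GLAST) had another order. Its level was 356.4, 333 and 304 CPM in ET, 356.6, 402 and 383 CPM in WT, 374, 288 and 347 CPM in the K238R-labelled libraries and 453, 439 and 475 CPM in K412R. The 3 K412R libraries were the highest of all 12, and WT stood above ET only by the margin between 356.6 and 356.4 CPM. Means were 331 ± 26.0 CPM in ET, 381 ± 22.9 in WT, 336 ± 44.0 in the K238R-labelled libraries and 456 ± 17.9 in K412R.

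Gja1 encodes connexin 43, the main gap junction protein of astrocytes and also of heart muscle. It was measured at 105.5, 134 and 90.0 CPM in ET, 129, 148 and 134 CPM in WT, 82.7, 102.5 and 76.1 CPM in the K238R-labelled libraries and 97.2, 104 and 96.9 CPM in K412R. Both mutant groups lay wholly below WT and overlapped with each other and with ET. Mean levels were 109.9 ± 22.4, 137 ± 10.01, 87.1 ± 13.7 and 99.4 ± 4.003 CPM in ET, WT, the K238R-labelled libraries and K412R.

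S100b, a calcium-binding protein of astrocytes that is also made by oligodendrocyte precursors and Schwann cells, was the least abundant member. It had 12.6, 11.3 and 5.73 CPM in ET, 13.3, 15.4 and 15.1 CPM in WT, 10.8, 17.1 and 9.50 CPM in the K238R-labelled libraries and 9.47, 17.1 and 9.26 CPM in K412R. Replicate 2 of both mutant groups exceeded all WT libraries and their other replicates fell below them, so the mutants could not be separated from WT. Group means were 9.87 ± 3.64, 14.6 ± 1.17, 12.5 ± 4.08 and 12.0 ± 4.48 CPM in ET, WT, the K238R-labelled libraries and K412R.

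Aldh1l1, a folate enzyme used as a general astrocyte marker, had its highest mean in the K238R-labelled libraries. It stood at 38.7, 57.2 and 28.6 CPM in ET, 37.9, 50.1 and 42.8 CPM in WT, 52.8, 74.6 and 64.3 CPM in the K238R-labelled libraries and 50.4, 55.1 and 45.9 CPM in K412R. The K238R-labelled libraries were above all WT libraries but overlapped with ET and K412R, and ET spanned the whole range of WT. Means were 41.5 ± 14.5, 43.6 ± 6.13, 63.9 ± 10.9 and 50.4 ± 4.605 CPM in ET, WT, the K238R-labelled libraries and K412R.

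Of the members tied to radial glia, Fabp7 encodes the brain lipid-binding protein, and Hopx an atypical homeodomain protein found in outer radial glia and in some quiescent stem cells. Fabp7 was at 381, 375 and 301 CPM in ET, 385, 490.2 and 518 CPM in WT, 392, 350.0 and 384 CPM in the K238R-labelled libraries and 306, 392 and 384 CPM in K412R. WT replicates 2 and 3 stood apart at the top, and WT replicate 1 was level with the highest libraries of the other groups. Mean levels were 352 ± 44.7, 464 ± 70.0, 375 ± 22.2 and 361 ± 47.8 CPM in ET, WT, the K238R-labelled libraries and K412R.

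Hopx had 19.05, 23.1 and 9.51 CPM in ET, 21.5, 32.4 and 33.8 CPM in WT, 16.5, 17.6 and 19.5 CPM in the K238R-labelled libraries and 18.6, 29.2 and 17.3 CPM in K412R. WT was above the K238R-labelled libraries without overlap, and overlapped with ET through WT replicate 1 and with K412R through K412R replicate 2. Means were 17.2 ± 6.96, 29.3 ± 6.72, 17.9 ± 1.55 and 21.7 ± 6.53 CPM in ET, WT, the K238R-labelled libraries and K412R.

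Sox9, a transcription factor that starts gliogenesis in the neural tube and also directs cartilage formation, was the only member lowest in WT. It was at 90.0, 75.5 and 70.7 CPM in ET, 67.3, 68.2 and 57.9 CPM in WT, 70.4, 73.0 and 94.6 CPM in the K238R-labelled libraries and 80.9, 71.4 and 79.3 CPM in K412R. All 9 other libraries lay above the 3 of WT, and the other 3 groups overlapped. Its means were 78.7 ± 10.1, 64.5 ± 5.73, 79.3 ± 13.3 and 77.2 ± 5.10 CPM in ET, WT, the K238R-labelled libraries and K412R.

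The members differed widely in how much they varied. The highest library exceeded the lowest 7.63-fold for Gfap, 4.53-fold for Aqp4 and 3.55-fold for Hopx, but only 1.72-fold for Fabp7, 1.65-fold for Slc1a3 and 1.63-fold for Sox9. Within groups, the SD of log2 CPM was 0.84 for Gfap, larger than in 94.0% of all genes tested, and 0.12 for Slc1a3, larger than in 15.3%, with a median of 0.24 over all genes tested. ET replicate 3 was the lowest of the 12 libraries for Gfap, Aqp4, Slc1a2, Aldh1l1, S100b, Fabp7 and Hopx, and WT replicate 3 was the highest for Gfap, Aqp4, Slc1a2, Fabp7 and Hopx. Summed over the 10 genes, the level was 1034 to 1832 CPM in ET, 1855 to 2399 CPM in WT, 1417 to 1536 CPM in the K238R-labelled libraries and 1280 to 1758 CPM in K412R.

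To learn whether WT Dnmt3L changed the glial transcripts, WT was set against ET. In WT, 9 of the 10 members lay higher than in ET and Sox9 lay lower, where 49.2% of all genes tested lay higher. The largest differences were those of Gfap and Aqp4, but no member passed the adjusted threshold of 0.05 in edgeR's quasi-likelihood test. Among all genes tested 0.0489% passed it in this comparison. The log2 fold change of Gfap was 1.12 (standard error 0.59, adjusted p = 0.223) and that of Aqp4 0.96 (standard error 0.35, adjusted p = 0.123). Hopx (0.80, standard error 0.30, adjusted p = 0.128), Slc1a2 (0.65, standard error 0.24, adjusted p = 0.122) and S100b (0.60, standard error 0.33, adjusted p = 0.238) came next. Fabp7 differed by 0.43 (standard error 0.14, adjusted p = 0.113), Gja1 by 0.35 (standard error 0.15, adjusted p = 0.158), Slc1a3 by 0.23 (standard error 0.10, adjusted p = 0.163) and Aldh1l1 by 0.10 (standard error 0.22, adjusted p = 0.772). For Sox9 the value was -0.26 (standard error 0.12, adjusted p = 0.176).

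Counted without adjustment, 6 members (Aqp4, Slc1a3, Slc1a2, Gja1, Fabp7 and Hopx) had an unadjusted p under 0.05, all higher in WT, where 14.0% of all genes tested did so in that direction and 15.1% in the other. The groups did not overlap, WT above ET, for 5 members (Gfap, Aqp4, Slc1a3, S100b and Fabp7), against 9.41% of all genes, and WT was wholly below ET for Sox9, against 11.4%. The median log2 fold change of the 10 was 0.51, beside -0.01 for all genes tested. In bulk RNA of a teratoma, a difference in the number of glial cells and a difference in RNA per glial cell cannot be told apart. DESeq2, which the study's methods name for this step, called Aqp4 (adjusted p = 0.0448) and Fabp7 (adjusted p = 0.0426), where it called 10.4% of all genes. The count rested on single libraries, since 5 members (Aqp4, Fabp7, Gja1, Hopx and Slc1a2) were called without ET replicate 2, where 30.8% of all genes were, and 1 (Fabp7) without WT replicate 1, where 6.97% were. The difference of Gfap, which no such fit called, was 1.72 when ET replicate 2 was left out and 0.71 when ET replicate 3 was. The paper describes 1 outlier in the control group, and its text does not name the library. Over all genes, chi-square per degree of freedom between ET libraries was 25.9 for replicates 1 and 2 and 52.6 for 2 and 3. It was 14.3 for ET replicates 1 and 3, and 10.5 to 31.8 for pairs within the other groups.

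**Figure D2:**
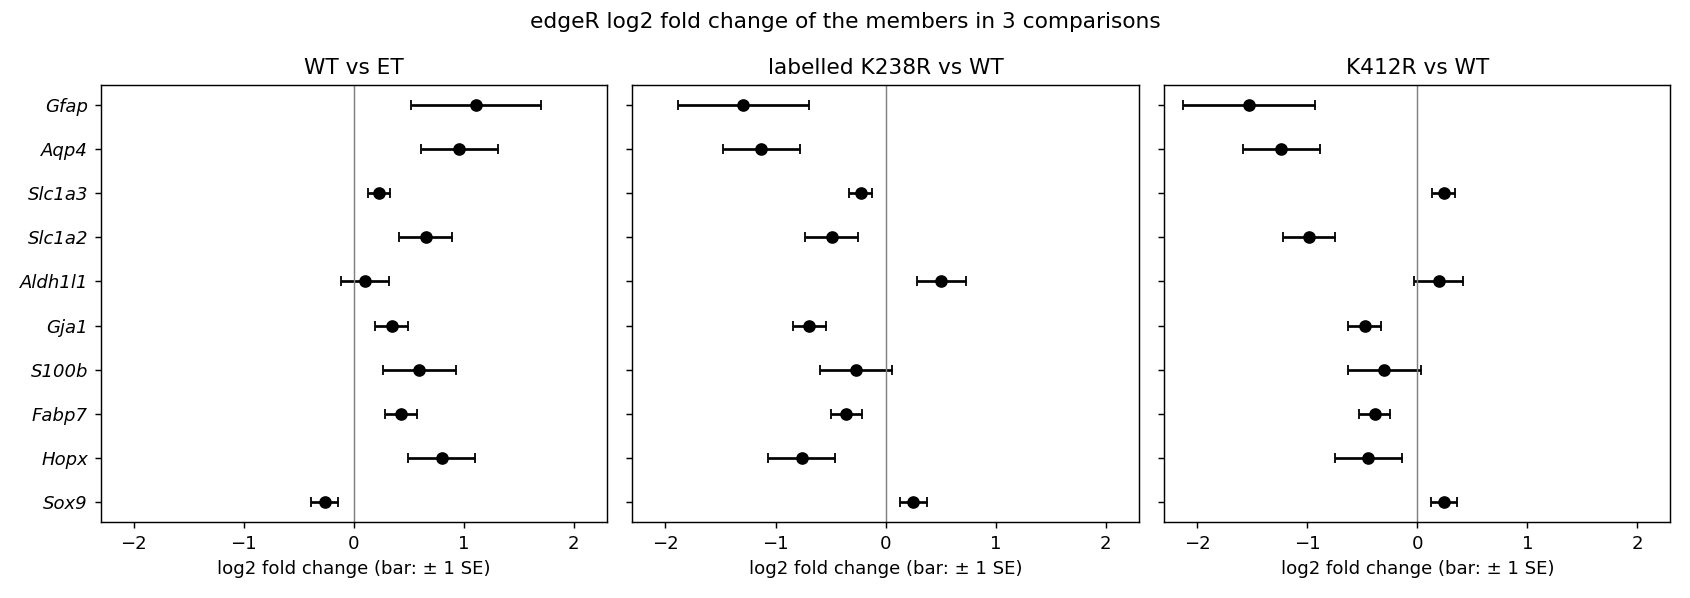
log2 fold change of each member (horizontal axis) from edgeR in WT against ET, in the K238R-labelled libraries against WT and in K412R against WT, with bars of 1 standard error. Gfap and Aqp4 lie farthest from 0 in every panel (1.12 and 0.96, -1.29 and -1.13, -1.53 and -1.24), and Slc1a3 lies below 0 in the K238R-labelled libraries (-0.23) and above 0 in K412R (0.24).

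The K238R-labelled libraries were compared with WT to see whether the glial genes depend on the acetylation site, and they share the WT libraries with the comparison above. Here 8 of the 10 members lay lower than in WT and 2, Aldh1l1 and Sox9, lay higher, where 50.1% of all genes did. None passed the adjusted threshold, against 0.223% of all genes. The smallest adjusted p was that of Gja1, with a log2 fold change of -0.69 (standard error 0.15, adjusted p = 0.0869). Aqp4 differed by -1.13 (standard error 0.35, adjusted p = 0.157), Gfap by -1.29 (standard error 0.59, adjusted p = 0.288) and Hopx by -0.76 (standard error 0.30, adjusted p = 0.232). The remaining values were -0.49 for Slc1a2 (adjusted p = 0.303), -0.36 for Fabp7 (adjusted p = 0.230), -0.27 for S100b (adjusted p = 0.665) and -0.23 for Slc1a3 (adjusted p = 0.281). Aldh1l1 stood at 0.51 (standard error 0.22, adjusted p = 0.264) and Sox9 at 0.25 (adjusted p = 0.299).

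An unadjusted p under 0.05 was reached by 5 members lower (Aqp4, Slc1a3, Gja1, Fabp7 and Hopx) and by Aldh1l1 higher, against 9.61% and 7.93% of all genes tested in those directions. The groups were separate, below WT, for Gfap, Aqp4, Gja1 and Hopx, against 11.3% of all genes, and above WT for Aldh1l1 and Sox9, against 12.7%. The median of the 10 was -0.42, beside 0.00 for all genes. DESeq2 called Aqp4 (adjusted p = 0.0281) and Gja1 (adjusted p = 0.00300), where it called 4.27% of all genes, and a fit of these groups alone called the same genes (adjusted p = 0.0176 and 0.0481), where 2.17% passed. Leaving out ET replicate 2 called Gja1 (adjusted p = 0.0119, 4.32% of all genes), and so did leaving out ET replicate 3 (adjusted p = 0.0493, 0.665% of all genes). Since Dnmt3l transcript in these libraries was at the level of ET, the values cannot be assigned to a mutant protein.

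In K412R, which shares the same WT libraries, 7 members lay lower than in WT and 3, Slc1a3, Sox9 and Aldh1l1, lay higher, where 51.2% of all genes did. No member passed the adjusted threshold, against 2.04% of all genes. Slc1a2 came closest, with a log2 fold change of -0.98 (standard error 0.24, adjusted p = 0.0580), followed by Aqp4 with -1.24 (standard error 0.35, adjusted p = 0.0822) and Gja1 with -0.48 (standard error 0.15, adjusted p = 0.103). Gfap had the largest difference, -1.53, and the largest standard error, 0.60 (adjusted p = 0.164). Fabp7 (-0.39, adjusted p = 0.140), Hopx (-0.44, adjusted p = 0.392) and S100b (-0.30, adjusted p = 0.598) lay lower with overlapping libraries. Slc1a3 was at 0.24 (standard error 0.10, adjusted p = 0.195), Sox9 at 0.24 (adjusted p = 0.254) and Aldh1l1 at 0.19 (adjusted p = 0.616).

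The 5 members with an unadjusted p under 0.05 below WT (Gfap, Aqp4, Slc1a2, Gja1 and Fabp7) compare with 12.5% of all genes, and the 1 above WT, Slc1a3, with 10.2%. The libraries were separate, below WT, for Gfap, Aqp4, Slc1a2 and Gja1, against 16.6% of all genes, and above WT for Slc1a3 and Sox9, against 14.4%. The median over the 10 members was -0.42, beside 0.01 for all genes tested. DESeq2 called 3 members, Slc1a2 (adjusted p = 0.00284), Aqp4 (adjusted p = 0.00816) and Gja1 (adjusted p = 0.0431), where it called 9.10% of all genes. A fit of K412R and WT alone called the same 3, where 10.6% of all genes passed. So did the fit without ET replicate 2, where 8.13% passed. Without ET replicate 3 the called members were Aqp4 and Slc1a2 (3.58% of all genes), and without WT replicate 1 Fabp7 and Slc1a2 (5.37%). K412R replicate 2 decided the size of the Gfap difference, which was -2.48 without it. Dnmt3l transcript was at 38.9, 38.3 and 26.0 CPM in K412R against 165, 203 and 204 CPM in WT. The mutation and the amount of transcript therefore cannot be told apart in this comparison.

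Against ET, the mutant groups showed little. In the K238R-labelled libraries the members' log2 fold changes had a median of 0.02, beside -0.02 for all genes, the smallest adjusted p was 0.806, and edgeR called 0% of all genes tested. Of the members 6 lay higher, as did 46.4% of all genes. No member was separate from ET, against 4.93% of all genes above it and 4.24% below. An unadjusted p under 0.05 was seen for Aldh1l1 (0.61, standard error 0.22), higher, and Gja1 (-0.35, standard error 0.15), lower, where 2.52% and 3.09% of all genes had one in those directions, and DESeq2 called 0.0761% of all genes and no member. In K412R the median was 0.01, beside -0.02 for all genes, edgeR again called 0% of genes, and 5 members lay higher, beside 46.4% of all genes. Slc1a3 was the member that stood apart, with a log2 fold change of 0.47 (standard error 0.10, adjusted p = 0.312) and all 3 K412R libraries above ET, as in 5.01% of all genes, while 5.74% lay wholly below. It was the one with an unadjusted p under 0.05, where 4.38% of all genes had one above ET and 3.53% below, and DESeq2 called it (adjusted p = 0.00409) with 0.484% of all genes.

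The opposite positions of the glutamate transporters in K412R were followed as ratios within a library, a measure chosen after the values had been seen. There were 0.143, 0.171 and 0.138 Slc1a2 counts per Slc1a3 count in K412R, against 0.324, 0.330 and 0.396 in WT, 0.240, 0.362 and 0.180 in ET, and 0.226, 0.411 and 0.262 in the K238R-labelled libraries. The K412R ratios were the lowest 3 of the 12. Exact two-sided permutation tests gave p = 0.1 for K412R against WT and 0.1 against ET, the smallest value that 3 libraries against 3 can give, and 0.3, 0.5 and 0.6 for WT against ET, the K238R-labelled libraries against WT and the K238R-labelled libraries against ET. Of the same form, Gfap per Slc1a3 was 1.34, 1.33 and 1.87 in WT and 0.231, 0.882 and 0.230 in K412R, without overlap, and 0.750, 1.38 and 0.309 in ET, which overlapped with both. The K238R-labelled libraries had 0.540, 1.17 and 0.545.

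**Figure D3:**
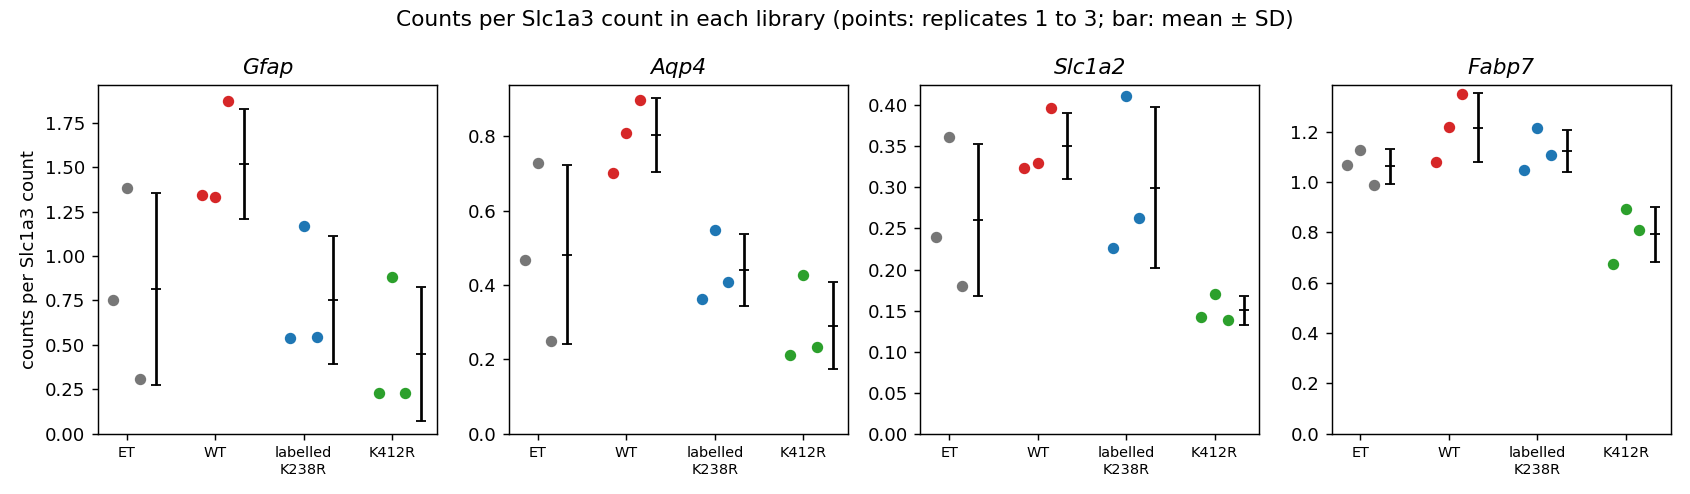
Counts of Gfap, Aqp4, Slc1a2 and Fabp7 per Slc1a3 count in each library (vertical axes, linear, from 0), with points for replicates 1 to 3 and bars for the mean ± SD. The 3 K412R libraries have the lowest Slc1a2 ratios (0.138 to 0.171), and Gfap in WT (1.33 to 1.87) lies above K412R (0.230 to 0.882).

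Over the 12 libraries, the members fell into a set that varied together and a few that did not. Here log2 CPM was taken with the TMM scaling of the edgeR fit and a prior count of 1, not from library totals alone. Pearson's r of log2 CPM was 0.97 between Gfap and Aqp4 and 0.92 between Slc1a2 and Aqp4, and Aqp4 was also the nearest member to Hopx (0.88), Fabp7 (0.87) and Gja1 (0.82), while S100b was nearest to Gfap (0.83). Slc1a3 had no close partner, with its highest r at 0.46 to Hopx, and neither had Aldh1l1, at 0.52 to S100b, nor Sox9, at 0.19 to Aldh1l1. Sox9 ran against the rest, down to -0.57 with Gja1. These values describe 12 libraries that share 4 groups and 1 scaling, so that a difference between groups or a single low library such as ET replicate 3 enters all of them. The 5 genes nearest to the mean of the standardized levels of the 10 members were Ngef, Bcan, Chrm2, Cdh12 and Slc4a4, each with r = 0.97. Ngef, the nearest, encodes a neuronal guanine nucleotide exchange factor, Chrm2 a muscarinic acetylcholine receptor and Cdh12 a cadherin. Bcan encodes brevican, a proteoglycan of the brain matrix, and Slc4a4 a sodium bicarbonate cotransporter of astrocytes. Which cells made these 5 transcripts was not tested. Slc4a4 is also on the list of further astrocyte genes below, whereas Ngef, Bcan, Chrm2 and Cdh12 are on none of the lists read here. Bcan was at 43.0, 57.8 and 21.6 CPM in ET, 60.0, 98.4 and 93.1 CPM in WT, 40.5, 57.8 and 43.1 CPM in the K238R-labelled libraries and 34.9, 58.4 and 33.3 CPM in K412R. Its likeness to members such as Aqp4 follows from how it was picked.

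**Figure D4:**
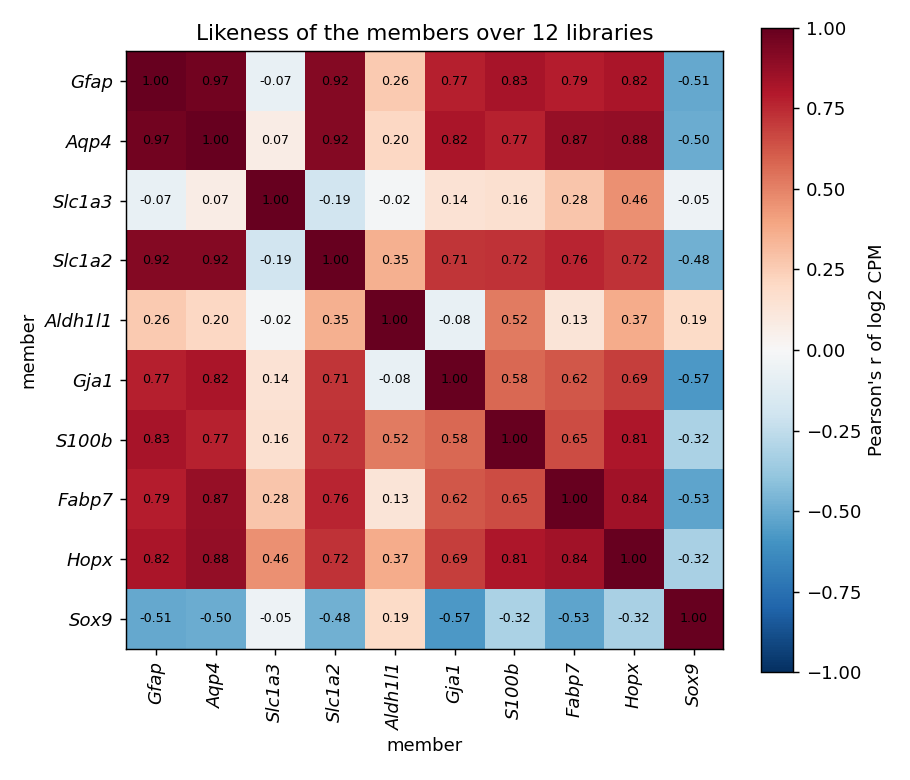
Pearson's r of log2 CPM, with the TMM scaling of the edgeR fit, over the 12 libraries for each pair of members (both axes, colour scale from -1 to 1). Gfap, Aqp4 and Slc1a2 form the closest block (0.92 to 0.97), Slc1a3 and Aldh1l1 stand apart, and Sox9 is negative with 8 of the 9 others.

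Further genes of the same cells were read from lists of 26 astrocyte genes, 23 radial glia genes and 27 regulators of gliogenesis, all of which passed the filter. These lists too were chosen with earlier results of these data known. In WT against ET, 22 of the 26 further astrocyte genes lay higher, where 49.2% of all genes did, with a median log2 fold change of 0.62. An unadjusted p under 0.05 was reached by 11 of them, all higher, beside 14.0% of all genes higher and 15.1% lower. None of the 76 genes passed the adjusted threshold, beside 0.0489% of all genes. The smallest p-values in that list belonged to Ndrg2 (0.86, standard error 0.28, adjusted p = 0.113) and Ntsr2, a neurotensin receptor of astrocytes (1.11, standard error 0.37, adjusted p = 0.114). The radial glia list was divided, with 12 genes above 0 and 11 below and a median of 0.11. Of these, 5 had an unadjusted p under 0.05 on the higher side and 7 on the lower. Prom1, a membrane glycoprotein of neural stem cells and other epithelia, and Hes1, a Notch effector that keeps progenitors undifferentiated, had the smallest p-values and lay lower in WT (-0.77, standard error 0.17 and -0.88, standard error 0.21, adjusted p = 0.100 for both). The regulators had a median of 0.01, and the smallest p-values were those of Id3, a BMP target (-0.56, standard error 0.10, adjusted p = 0.0939) and Bmpr1b, a BMP receptor (0.67, standard error 0.15, adjusted p = 0.0990). DESeq2 called 13 of the 76, beside 10.4% of all genes.

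In the K238R-labelled libraries against WT, 23 of the 26 further astrocyte genes lay lower, with a median of -0.45, where 50.1% of all genes lay higher. None passed the threshold, and 5 had an unadjusted p under 0.05 on the lower side and 0 on the higher, beside 9.61% and 7.93% of all genes. Dio2, the enzyme that activates thyroid hormone (-1.16, adjusted p = 0.160), and Ntsr2 (-0.94, adjusted p = 0.229) had the smallest p-values. The radial glia genes had a median of 0.08, with Tnc, the matrix protein tenascin C (-1.21, adjusted p = 0.0671), and Prom1 (0.73, adjusted p = 0.0971) at the extremes. Of the regulators, 1 passed, Bmpr1b, beside 0.223% of all genes. It fell from 18.8, 20.0 and 20.9 CPM in WT to 11.9, 11.7 and 10.5 CPM (log2 fold change -0.85, standard error 0.15, adjusted p = 0.0495). That call was lost when counts were scaled to library totals, and it was lost without ET replicate 1, any single WT library, any single K238R-labelled library, or K412R replicate 1 or 3.

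In K412R against WT, 21 of the 26 further astrocyte genes lay lower, with a median of -0.52, where 51.2% of all genes lay higher. None passed the threshold, which 2.04% of all genes passed in this comparison. An unadjusted p under 0.05 was reached by 4 on the lower side and 2 on the higher, beside 12.5% and 10.2% of all genes. Ntsr2 (-1.30, adjusted p = 0.0836) and, on the higher side, the hyaluronan receptor Cd44 (0.37, adjusted p = 0.0976) had the smallest p-values. The radial glia genes had a median of -0.12, and Prom1 rose from 261, 190.4 and 147 CPM in WT to 514, 381 and 536 CPM in K412R (log2 fold change 1.24, standard error 0.17, adjusted p = 0.0103). Of the regulators, whose median was 0.06, Id3 rose by 0.68 on the log2 scale (standard error 0.10, adjusted p = 0.0130). Il6st, the gp130 receptor chain through which cytokines induce astrocyte genes, rose from 158, 147 and 147 CPM to 227, 207 and 205 CPM (0.48, standard error 0.10, adjusted p = 0.0329). Bmpr1b fell by 0.86 on the log2 scale (standard error 0.15, adjusted p = 0.0207). No regulator or radial glia gene was called without WT replicate 3 or without K412R replicate 1 or 3, and Id3 was the one called without WT replicate 2. Il6st alone lost its call without ET replicate 1, K238R-labelled replicate 3 or K412R replicate 2.

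Against ET none of the 76 genes passed, beside 0% of all genes for either mutant group. For the K238R-labelled libraries the smallest p-values of the 3 lists belonged to Cd44 (-0.23) and Dio2 (-0.65), Tnc (-0.53) and Id4 (0.28), and Sox8 (0.50) and Lifr (-0.22), all with an adjusted p of 0.806. For K412R they belonged to Slc15a2 (0.42, adjusted p = 0.444) and Mlc1 (0.63, adjusted p = 0.599), Prom1 (0.47, adjusted p = 0.558) and Sox1 (-0.64, adjusted p = 0.559), and Il6st (0.39, adjusted p = 0.363) and Cntfr (-0.32, adjusted p = 0.529).

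**Figure D5:**
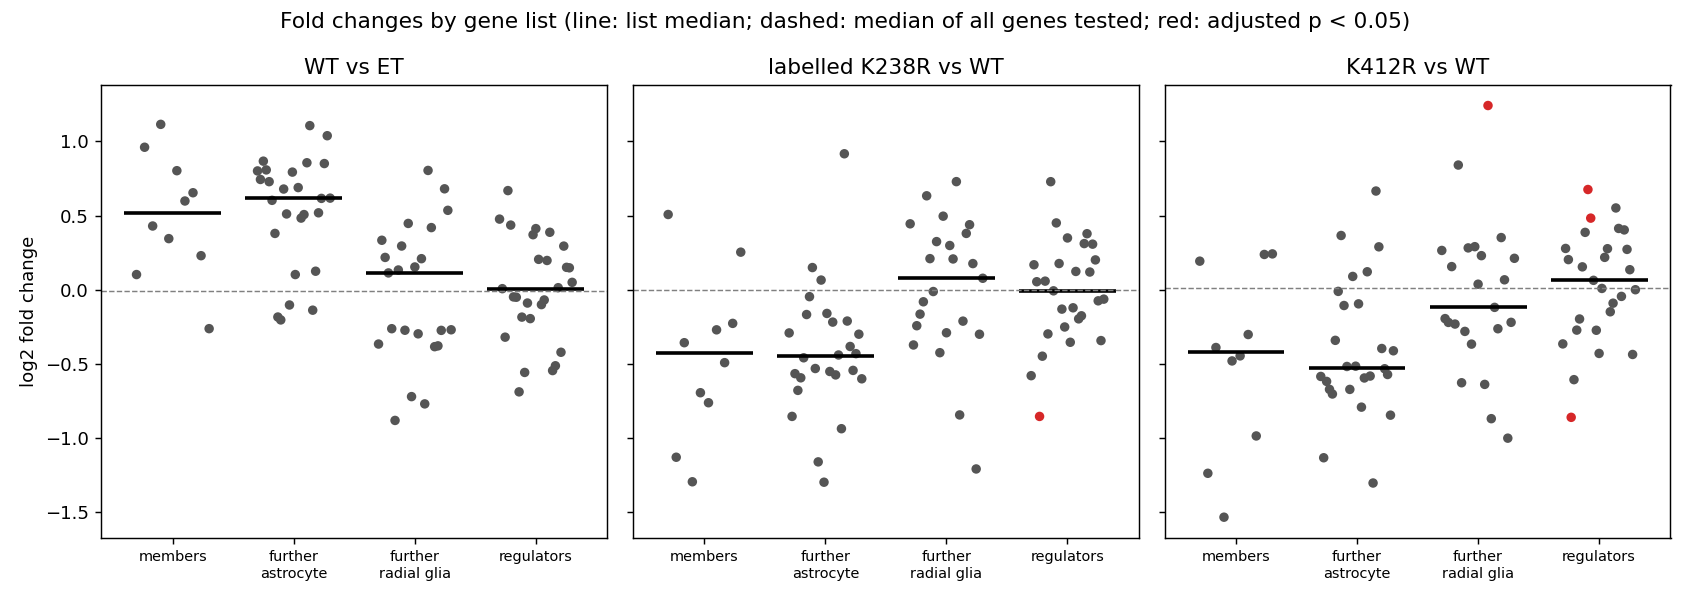
log2 fold changes (vertical axis) of the 10 members, the further astrocyte genes, the further radial glia genes and the regulators of gliogenesis in 3 comparisons, with solid lines at list medians, a dashed line at the median of all genes tested and red points for adjusted p under 0.05. The medians of the members and of the further astrocyte genes lie above the dashed line in WT against ET (0.51 and 0.62) and below it in the K238R-labelled libraries (-0.42 and -0.45) and K412R (-0.42 and -0.52) against WT, and those of the other lists lie closer to it.

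Several members are also made by cells other than astrocytes, and the markers of those cells moved between the groups too. The summed level of 12 oligodendrocyte markers was 365 to 493 CPM in ET, 573 to 811 CPM in WT, 608 to 743 CPM in the K238R-labelled libraries and 611 to 988 CPM in K412R, with the highest value in K412R replicate 2. S100b was also highest there (17.13 CPM), but nearly the same in K238R-labelled replicate 2 (17.11 CPM). In the latter library the oligodendrocyte sum was 743 CPM, below the 811 CPM of WT replicate 2. Schwann cell and enteric glia markers summed to 159 to 195 CPM in ET, 212 to 295 CPM in WT, 194 to 210.0 CPM in the K238R-labelled libraries and 218 to 305 CPM in K412R, so that K412R overlapped with WT. The 10 cartilage markers, beside which Sox9 is read, summed to 143 to 205 CPM in ET, 78.0 to 126 CPM in WT, 125 to 171 CPM in the K238R-labelled libraries and 146 to 254 CPM in K412R. Col2a1 alone, the main collagen of cartilage, gave 83.0 to 162 CPM of the sum in ET and 36.0 to 87.2 CPM in WT. Of the 8 cartilage markers tested, 5 lay lower and 3 higher in WT than in ET (median log2 fold change -0.06), 5 lay lower and 3 higher in the K238R-labelled libraries than in WT (-0.11), and 5 lay higher and 3 lower in K412R than in WT (0.41). In each comparison edgeR called 1 of the 8, where it called 0.0489%, 0.223% and 2.04% of all genes. The call was lower in WT than in ET (adjusted p = 0.0293). The calls were higher in the K238R-labelled libraries and K412R than in WT (adjusted p = 0.0153 and 0.00435). Cnmd, the one marker wholly below ET in WT, was at 0.67, 0.89 and 0.51 CPM in WT. In the other groups it was at 2.50 to 4.15 CPM.

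Skeletal muscle, which also makes Aqp4, had summed marker levels of 180 to 400 CPM in ET, 268 in WT replicate 1 but 2131 and 1775 in WT replicates 2 and 3, 17.6 to 713 CPM in the K238R-labelled libraries and 219 to 235 CPM in K412R. Cardiac markers, beside which Gja1 is read, summed to 50.8 to 185 CPM in ET, 106 to 362 CPM in WT, 63.4 to 168 CPM in the K238R-labelled libraries and 71.2 to 120 CPM in K412R. Of the 6 cardiac markers tested, 6 lay lower in the K238R-labelled libraries than in WT, where 50.1% of all genes lay higher. In K412R against WT 5 lay lower, where 51.2% of all genes lay higher. In WT against ET, 4 lay higher and 2 lower, beside 49.2% of all genes higher. Actn2 gave 26.0, 186 and 102 CPM of the sum in WT, high in the same replicates as the skeletal muscle markers. Tnni3 was at 8.60, 5.97 and 5.25 CPM in WT and 6.77, 9.02 and 5.62 CPM in ET. Neuronal markers summed to 3754 to 4000 CPM in ET, 3781 to 5003 CPM in WT, 4215 to 5110 CPM in the K238R-labelled libraries and 2936 to 3447 CPM in K412R, so that K412R was below every other library in this sum. All 12 markers lay lower in K412R than in ET (median log2 fold change -0.12), but 1 without overlap, beside 5.74% of all genes. Against WT all 12 lay lower too (-0.59), with 8 without overlap and 1 called, beside 16.6% and 2.04% of all genes. Nefl and Nefm gave 631 and 562 CPM of the sum in ET replicate 1, but 281 and 178 CPM in ET replicate 2. Ependyma and choroid plexus markers summed to 132 to 207 CPM in ET and 150 to 180 CPM in WT. In the K238R-labelled libraries and K412R they summed to 158 to 180 and 178 to 223 CPM. Their median log2 fold change was 0.35 in WT against ET, and -0.49 and -0.33 in these groups against WT. Mueller glia and retina markers summed to 81.1 to 99.2 CPM in ET and 84.7 to 88.0 CPM in WT. In the K238R-labelled libraries and K412R these gave 87.3 to 103 and 108 to 120 CPM. The part of these cell types in the members' values was not tested. Of the markers read, Matn1 (cartilage), Crx and Rcvrn (retina), Myl7 and Nkx2-5 (heart), Alb (liver), Ivl (squamous epithelium) and Fabp2 (intestine) had under 10 counts in every library.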

How the data were processed

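The authors extracted RNA from whole teratomas, made poly(A) libraries with the CORALL kit and, per their methods, processed paired reads with Fastp, STAR and Salmon. They deposited estimated counts per gene symbol, whole numbers without normalization. The submitters' processing notes name GRCm39 and, with no role, GATK. For software versions their methods point to source data not used here, and the annotation, strand setting and use of molecular identifiers are not given in the sources used here. From these files, CPM (counts scaled to the library total) was computed, and edgeR 4.0.16 (R 4.3.3) was run with TMM scaling, its low-count filter and robust quasi-likelihood tests over all 12 libraries with 1 mean per group, with Benjamini-Hochberg adjustment over 18405 genes. DESeq2 1.42.0 and other settings were alternatives. Simulated counts were used to test the code. The members and lists were chosen with earlier results of these data known. All members were named, with the listed genes that passed (at most 5 a list) or else the 2 with the smallest p. Overlapping antisense genes of Aldh1l1, Hopx and Slc1a2 had at most 8 counts. Promoters and lengths come from RefSeq GRCm38.p6 and GENCODE M21, and Aqp4 and Sox9 had no promoter entry that could be used.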

Additional observations from a re-analysis of the deposited data

How the results depend on the processing

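No member was called in any of the 5 comparisons with DESeq2's size factors, with library totals, with or without the most abundant RNA, or without a filter on low counts, and over these and the other settings 891 of 950 member values kept direction and side of the threshold, 32 gained a call and 27 changed direction. A call could not be lost, because the main fit called no member. The number of members called was 2 with DESeq2 in WT against ET, in the K238R-labelled libraries against WT 2 with DESeq2, 1 with the replicate block (1.10% of all genes) and 2 with these groups alone, in K412R against WT 3 with each of these settings (6.15% of all genes with the block), and in K412R against ET 1 with DESeq2. Over the fits that each left out 1 library the counts were 0 to 5 in WT against ET, 0 to 1 in the K238R-labelled libraries against WT and 0 to 3 in K412R against WT. Of the 76 related genes, WT against ET called 13 with DESeq2 (10.4% of all genes), 9 with the replicate block (5.03%) and 0 to 30 with a library left out, the last without ET replicate 2 (30.8%). The K238R-labelled libraries against WT called 0 with library totals with or without the most abundant RNA, 5 with DESeq2 (4.27%), 4 with the replicate block (1.10%), 3 with these groups alone (2.17%) and 0 to 7 with a library left out, the last without ET replicate 2 (4.32%). K412R against WT called 10 with DESeq2 (9.10%), 10 with the replicate block (6.15%), 13 with these groups alone (10.6%) and 0 to 8 with a library left out (8.13% without ET replicate 2), and K412R against ET 1 with DESeq2 and 0 to 1 with a library left out, with the cause not tested. Over the 500 genes used for this check, deviations of same-numbered libraries correlated between -0.31 and 0.28, and 2 of the 12 libraries correlated best with their own number, so the design was not treated as paired. Replicate 2 nonetheless had the highest mean standardized level of the 10 members in each group (0.32 in ET, 0.92 in WT, 0.11 in the K238R-labelled libraries and 0.48 in K412R).

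Sox9 in the K238R-labelled libraries against ET was 0.011 with library totals, with or without the most abundant RNA, instead of -0.0073. With a library left out, Aldh1l1 in WT against ET ranged from -0.10 to 0.41. In the K238R-labelled libraries against ET the ranges were -0.58 to 0.43 for Gfap, -0.50 to 0.25 for Aqp4, -0.077 to 0.093 for Slc1a3, -0.073 to 0.48 for Slc1a2, -0.016 to 0.13 for Fabp7, -0.24 to 0.32 for Hopx and -0.13 to 0.092 for Sox9. In K412R against ET they were -1.36 to 0.20 for Gfap, -0.65 to 0.16 for Aqp4, -0.25 to 0.054 for Gja1, -0.081 to 0.50 for S100b, -0.049 to 0.14 for Fabp7 and -0.080 to 0.080 for Sox9. Depth did not limit these genes, whose lowest count was 103.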
